A study of Homo sapiens with 8 samples.

Results

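RBBP4 was mapped by chromatin immunoprecipitation and sequencing (ChIP-seq) in NCI-H69 cells, a human line established from small cell lung cancer. The regions described here are narrow stretches of RBBP4 signal inside genes: under 1000 bp wide, overlapping a RefSeq protein-coding gene span, and more than 3000 bp from every protein-coding gene end. A segment of chromosome 8 from 113 to 128 Mb was left out by the same rule. Of the 35154 RBBP4 regions in the authors' deposited table, 11333 met it. They lay in 4594 genes, 11175 of them in 1 gene span and 158 in 2. In the knockdown arm, NCI-H69 cells received small interfering RNA (siRNA) against CSNK2B, which encodes the regulatory subunit of casein kinase 2. In the control arm they received a non-targeting siRNA. Both arms were transfected with Lipofectamine RNAiMAX, collected 48 h later and fixed in 1% formaldehyde for 10 min. Each arm had 1 RBBP4 library and 1 P300 library, with inputs that were not used, so the series held 8 libraries and no difference had a replicate check.

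RBBP4 is a WD-repeat protein that binds histones H3 and H4. It is a shared subunit of the SIN3 and NuRD deacetylase complexes, Polycomb repressive complex PRC2, the nucleosome remodeller NURF, the chromatin assembly factor CAF-1 and the cell-cycle repressor complex DREAM. Inside genes, such complexes are known to act at internal promoters and enhancers. Casein kinase 2 phosphorylates many nuclear proteins, and its beta subunit helps to choose substrates. How much CSNK2B remained after knockdown was not measured in the data used here.

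Reads per region were worked back from the deposited RPKM values, which scale reads to region length and a library total. The arm of each value was read from the name of its column alone, and an exchange of the columns would turn every direction given here. All tested RBBP4 regions together held 1207946 reads in the knockdown library and 833181 in the control library, as inferred from the RPKM. Folds are ratios of reads scaled to these totals. Their 95% intervals are exact binomial ones and cover counting error only. Where 1 library had 0 reads, the fold was computed with 3 reads in its place, which takes the other library's reads as fixed. The lower limit of the interval is given beside such a fold. The table lists only regions with a p-value under 0.05, so regions that hardly differed are missing by construction. Region names also give the arm of the peak call, and direction matched it in all but 1 of the 11333 regions. This match is no check of direction, since a region called in 1 arm and listed by p is mostly higher there. Few reads in the other arm are part of that selection.

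Some narrow gene-body regions held a transcript start inside the gene. Many genes have several RefSeq starts, and a later start lies inside the span that the outermost transcripts set. Of 10852 narrow gene-body regions on chromosomes with RefSeq start sequences, 280 held such a start. Of these, 275 were higher after knockdown, beside 68.8% of all listed RBBP4 regions. Regions within 3000 bp of a gene end were also mostly higher, in 93.3% of 7829 cases. Below are the 250 bases upstream of 4 starts with deep signal, and of RAPGEF5, the only gene whose own internal start lay in a region that was lower. They are from RefSeq on GRCh38.p14, read 5′ to 3′ on the strand of the gene, with capitals marking each CG dinucleotide. AGTPBP1 encodes a tubulin deglutamylase, PTCH1 the Hedgehog receptor, LSM5 a subunit of the U6 small nuclear RNA-binding ring, SMAD3 a TGF-beta signal transducer, and RAPGEF5 an exchange factor for Rap GTPases.
AGTPBP1 (chr9:85742030-85742279, minus strand): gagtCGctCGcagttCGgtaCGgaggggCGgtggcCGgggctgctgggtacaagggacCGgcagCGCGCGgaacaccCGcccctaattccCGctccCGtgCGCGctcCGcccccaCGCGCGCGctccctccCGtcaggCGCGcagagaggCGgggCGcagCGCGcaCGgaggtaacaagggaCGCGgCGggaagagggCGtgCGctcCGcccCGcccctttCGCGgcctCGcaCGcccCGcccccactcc
PTCH1 (chr9:95509267-95509516, minus strand): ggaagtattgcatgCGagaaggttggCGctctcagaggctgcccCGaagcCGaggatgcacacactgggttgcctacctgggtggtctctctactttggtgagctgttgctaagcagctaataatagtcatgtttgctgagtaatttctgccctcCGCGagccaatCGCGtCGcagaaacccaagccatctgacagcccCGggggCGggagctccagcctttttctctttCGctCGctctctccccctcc
LSM5 (chr7:32490381-32490630, minus strand): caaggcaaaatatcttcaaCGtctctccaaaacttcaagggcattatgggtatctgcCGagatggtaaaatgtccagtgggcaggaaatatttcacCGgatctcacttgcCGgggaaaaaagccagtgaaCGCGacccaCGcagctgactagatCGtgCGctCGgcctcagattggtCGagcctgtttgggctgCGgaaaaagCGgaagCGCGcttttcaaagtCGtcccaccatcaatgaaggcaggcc
SMAD3 (chr15:67098429-67098678, plus strand): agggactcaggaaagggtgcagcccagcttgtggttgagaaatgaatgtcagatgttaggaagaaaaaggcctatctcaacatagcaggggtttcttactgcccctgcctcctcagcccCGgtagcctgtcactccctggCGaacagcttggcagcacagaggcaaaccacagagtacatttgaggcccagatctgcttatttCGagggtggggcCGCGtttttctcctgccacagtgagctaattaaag
RAPGEF5 (chr7:22193746-22193995, minus strand): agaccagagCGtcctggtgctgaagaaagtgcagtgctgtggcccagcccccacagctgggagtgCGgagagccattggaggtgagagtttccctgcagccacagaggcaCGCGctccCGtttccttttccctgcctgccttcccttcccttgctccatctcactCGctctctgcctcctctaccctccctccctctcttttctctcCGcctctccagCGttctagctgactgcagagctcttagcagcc

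The AGTPBP1 stretch was 76.8% G and C, with 40 CG dinucleotides and 5 copies of GGGCGG, the GC box. GC boxes were counted on both strands, where they read CCGCCC on the other, and overlapping copies were not counted again. PTCH1 had 13 CG and 1 GC box, and LSM5 had 16 CG and no GC box. SMAD3 was poorer in CG, with 5, and also had no GC box. RAPGEF5 was 60.8% G and C, with 8 CG and no GC box. RBBP4 reads over the AGTPBP1 start numbered 82 after knockdown against 6 in the control, or 9.43-fold more (4.15 to 26.4). Over the PTCH1 start there were 58 reads after knockdown against 5 in the control, 8.00-fold higher (3.24 to 25.6). The LSM5 start had 75 reads after knockdown against 7 in the control, 7.39-fold higher (3.42 to 19.0). The intervals of these 3 overlapped. At SMAD3 the counts were 70 after knockdown against 12 in the control, 4.02-fold higher (2.16 to 8.16). RAPGEF5 had 5 reads after knockdown against 16 in the control, or 0.216 of the control level (0.0618 to 0.616). In the authors' deposited table RAPGEF5 had an adjusted p of 0.112 and SMAD3 one of 6.2e-07.

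Other genes with an internal start in a higher region had varied roles. ATG101, an autophagy factor, had 45 reads after knockdown against 2 in the control. The histone demethylase gene KDM4C had 33 after knockdown against 0 in the control, 7.59-fold higher (lower limit 5.83). SLC7A8, an amino acid transporter, had 37 after knockdown against 1 in the control. In the authors' deposited table all 3 had an adjusted p under 0.05. SMC2, a condensin subunit, had 64 and 8 reads (knockdown, control), 5.52-fold higher (2.64 to 13.3). MEF2C, a transcription factor of neurons and muscle, had 31 after knockdown against 2 in the control. NFIB, a transcription factor amplified in some small cell lung cancers, had 43 after knockdown against 9 in the control. RAD52, a recombination factor, had 29 after knockdown against 3 in the control. These 4 were higher by 3.30-fold (NFIB) or more. At the start of a non-coding gene inside LARP1, an RNA-binding protein gene, the counts were 30 after knockdown against 1 in the control.

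The share of regions that were higher was smaller farther from a start. It was 98.2% (275 of 280, interval 95.9 to 99.4) for regions that held one and 95.7% (132 of 138) within 300 bp. It was 87.4% (132 of 151) at 300 to 1000 bp and 75.9% (223 of 294) at 1 to 3 kb. From 3 to 10 kb the share was 65.5% of 1268 regions, at 10 to 100 kb 61.5% of 6264, and beyond 100 kb 62.4% of 2457. Beyond 10 kb the share hardly moved, so the difference lay in the nearest few kilobases. Regions with a start were also deeper and wider, with a median of 23 reads and 519.5 bp, against 17 reads and 395 bp at 10 to 100 kb. At a matched depth of 11 to 15 reads over both libraries, 90.9% of 33 regions with a start were higher (75.7 to 98.1), against 41.8% of 2670 regions over 10 kb away (39.9 to 43.7). At 16 to 20 reads the shares were 98.4% of 63 and 55.3% of 1549. At 31 to 50 reads they were 100% of 66 (94.6 to 100) and 96.0% of 1253 (94.8 to 97.0), with intervals that met, and at 51 or more reads both were 100%.

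**Figure D1:**
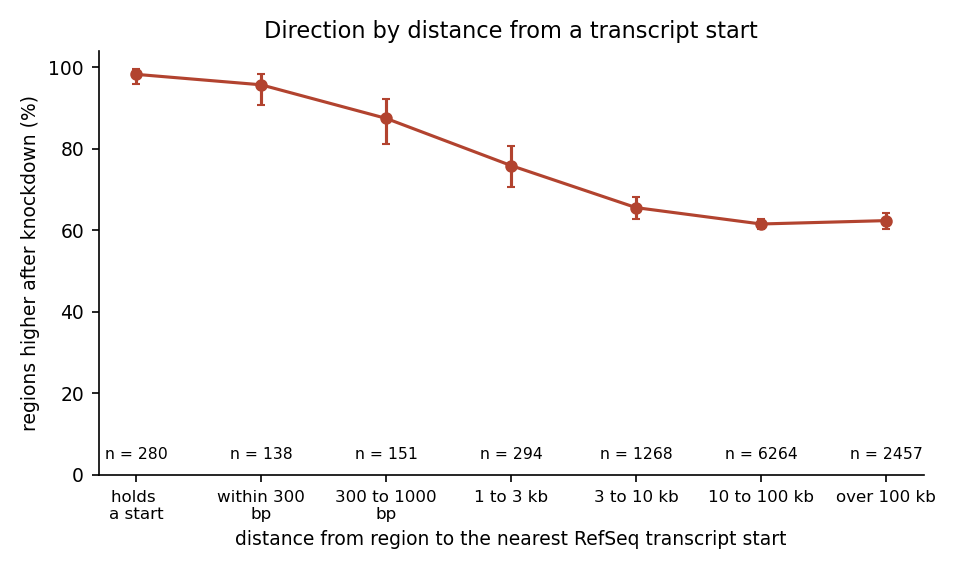
Percent of narrow gene-body RBBP4 regions that were higher after CSNK2B knockdown (vertical axis) by distance to the nearest RefSeq transcript start (horizontal axis), with exact 95% binomial intervals that cover counting of regions only. The share was 98.2% where the region held a start and 62.4% beyond 100 kb.

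Of the 280 regions, 241 held a start of the gene around them, and 240 of these were higher after knockdown. The other 39 held only starts of non-coding genes, and 35 were higher. Seen from the starts, 327 of 6506 internal starts (5.03%) fell in a higher narrow region and 5 (0.0769%) in a lower one. Another 85 fell in a region of 1000 bp or more, 15 in a region within 3000 bp of a gene end, and 6074 in no listed RBBP4 region. Upstream sequences differed between these sets, but so did the kind of start. Higher regions held 265 starts of the gene around them and 63 of non-coding genes. Outside any listed region there were 3471 and 2607 in that order. The sequence values below are not split by kind, and whether kind accounts for their differences was not tested. The median number of CG dinucleotides in 250 bases was 18 for starts in higher regions and 4 for starts outside any listed region, against 11 for all 34943 start windows. Median G and C content was 63.2% for starts in higher regions, 50.4% for starts outside, and 58% for all. GGGCGG on either strand, which itself contains a CG, stood in 53.8% of windows in higher regions, 24.8% of those outside and 42.5% of all. CCAAT, the NF-Y box, was found in 34.9%, 29.8% and 32.0% in the same order, so this motif hardly separated the sets. TATAAA, the TATA box, was less frequent in higher regions (6.42%) than outside (12.9%) or over all windows (10.8%). CCGGAAG, a core recognised by ETS factors, was found in 8.26% of windows in higher regions, 3.72% outside and 8.48% of all. CACGTG, the E box, was found in 7.95%, 4.53% and 6.32% in that order. All were searched on both strands. A motif match is a description of letters and not a bound site.

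Over all narrow gene-body regions, 7296 were higher after knockdown (64.4%, interval 63.5 to 65.3) and 4037 were lower. Over all listed RBBP4 regions, 68.8% were higher and 31.2% lower by the same sign. Higher regions had a median of 18 reads after knockdown against 3 in the control (35.3 and 9.27 RPKM). Their quartiles were 13 and 27.25 reads after knockdown, against 2 and 6 in the control. Lower regions had a median of 2 reads after knockdown against 12 in the control (4.37 and 36.5 RPKM). Their quartiles were 1 and 3 reads after knockdown, against 10 and 14 in the control. Of the higher regions 340 had 0 control reads, and of the lower regions 344 had 0 knockdown reads. Depth was uneven between the directions, since the highest count was 143 reads after knockdown among higher regions and 32 in the control among lower ones.

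**Figure D2:**
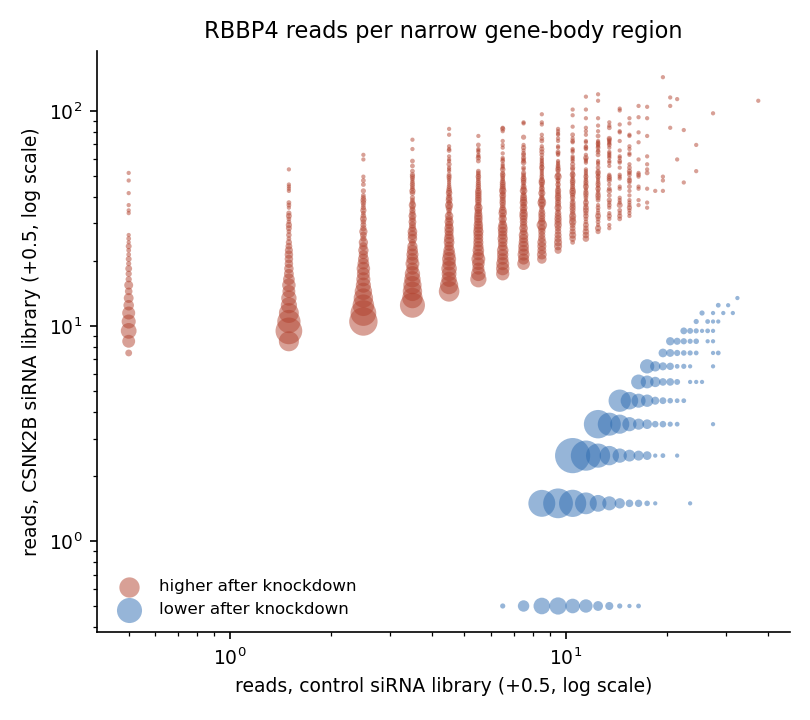
RBBP4 reads of each narrow gene-body region in the CSNK2B siRNA library (vertical axis) and the control siRNA library (horizontal axis), both on log scales with 0.5 added; point area grows with the number of regions at the same counts. Higher regions extend to 143 knockdown reads, while lower regions stop at 32 control reads, and the empty diagonal holds the regions whose p was too large to be listed.

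Measured as log2 of the RPKM ratio with 1 RPKM added to each side, which understates the ratio of low regions, the median was 1.37. Higher regions ranged between 0.49 and 6.39 with a median of 1.81, and lower regions between -5.80 and -1.63 with a median of -2.77. At least a 2-fold difference on this scale was reached by 6865 higher and 4037 lower regions, beside 64.9% and 31.2% of all listed regions. The authors' p treated reads of both libraries alike, without this scaling. In SDK1, 10 reads after knockdown against 2, and 2 against 10, had the same p. Scaled, these were 3.45-fold higher and 0.138 of the control level. A lower region thus had to differ more on this scale to be listed. How far this moved the share that was higher was not tested. Per the authors' deposited table, 4691 of the 7296 higher regions (64.3%) and 1123 of the 4037 lower ones (27.8%) had an adjusted p under 0.05. There, the same shares over all listed regions were 70.3% of the higher and 28.6% of the lower ones. Such calls made up 48.3% (higher) and 8.94% (lower) of all listed regions, and 17.8% and 3.3% of all 95329 regions tested. That p-value compares 2 libraries, not 2 conditions.

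Narrow regions between genes were less often higher: 54.5% of 13918 (53.6 to 55.3), with a median log2 ratio of 1.08. Wide regions away from gene ends were higher in 96.6% of 1876 cases, and regions at gene ends in 93.3% of 7829. Among narrow gene-body regions the share that was higher was 40.0% at 6 to 10 reads, 44.1% at 11 to 15 and 59.5% at 16 to 20. It was 81.0% at 21 to 30 reads, 96.8% at 31 to 50, and 100% (590 of 590) at 51 or more. Narrow regions between genes had 35.2%, 35.1% and 48.8% in the shallow bins and 73.0%, 95.4% and 99.7% in the deep ones. Up to 30 reads the intervals of the 2 sets did not meet, with the gene-body regions more often higher at the same depth. At 6 to 10 reads the limits, 37.37% and 37.35%, all but touched, and the intervals treat neighbouring regions as independent. At 31 to 50 reads the intervals did meet. Gene-body regions over 1000 bp from a start were higher in 62.6%, between the values of both full sets.

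**Figure D3:**
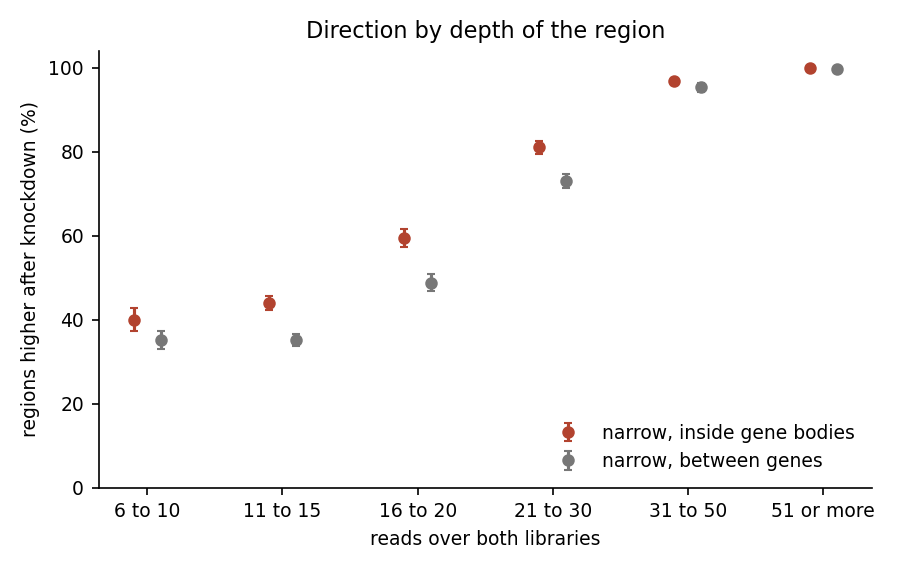
Percent of regions higher after CSNK2B knockdown (vertical axis) by reads over both libraries (horizontal axis), for narrow regions inside gene bodies and between genes, with exact 95% binomial intervals. Gene-body regions run between 40.0% at 6 to 10 reads and 100% at 51 or more, and lie above the intergenic regions up to 30 reads.

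The widest regions were the most often higher: 93.3% of 270 at 900 bp or more, against 60.1% of 2555 under 300 bp and 55.0% of 3096 at 300 to 399 bp. Within 100 bp above the width limit the share was 96.2% of 208. Within 1000 bp inside the distance limit it was 74.8% of 314, and within 1000 bp outside it 73.7% of 403. Along 9247 regions in genes whose strand was known, there was little trend in direction. In the first 20% of the gene 64.9% were higher, and in the last 20% 62.2%.

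Single regions gave the widest contrasts. In CTTNBP2NL, whose product belongs to the STRIPAK phosphatase complex, a region at chr1:112420753-112421261 had 51 reads after knockdown against 0 in the control. That was 11.7-fold higher (lower limit 9.20). A region in CABLES1, which encodes a partner of cyclin-dependent kinases, had 41 after knockdown against 0 in the control, 9.43-fold higher (lower limit 7.33). PDE5A, a cyclic GMP phosphodiesterase gene, had a region with 47 reads after knockdown against 0 in the control, 10.8-fold higher (lower limit 8.45). None of these 3 lay within 20 kb of a RefSeq start. SIK3, a kinase gene of the salt-inducible family, and PTPRG, a receptor phosphatase gene, each had 23 reads after knockdown against 0 in the control. TLE6, a relative of the Groucho corepressors, had 21 after knockdown against 0 in the control. On the lower side, ACYP2, an acylphosphatase gene, had 1 read after knockdown against 23 in the control, 0.0300 of the control level (0.000728 to 0.185). COMMD1, an adaptor of copper handling and protein turnover, had 1 and 18 reads (knockdown, control). The kinetochore gene ZWILCH had 2 after knockdown against 18 in the control, and RIPK1, a kinase of cell death signalling, had 2 and 19 in that order.

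The deepest higher region lay in SDK1, which encodes a synaptic adhesion molecule, with 143 reads after knockdown against 19 in the control (5.19-fold higher, 3.21 to 8.88). Also among the 5 deepest, TPST1, a tyrosine sulfotransferase gene, had 119 after knockdown against 12 in the control (6.84-fold higher, 3.77 to 13.6). PDE4D had 111 reads after knockdown against 37 in the control at its deepest region, or 2.07-fold more (1.41 to 3.09). The deepest lower regions were shallower. TMEM178A, a membrane protein gene, had 13 reads after knockdown against 32 in the control, 0.280 of the control level (0.135 to 0.549). VIPR2, a receptor gene for vasoactive intestinal peptide, had 11 after knockdown against 31 in the control, 0.245 of the control level (0.111 to 0.50). Both directions met in AGTPBP1 and MLLT3. AGTPBP1, whose internal start is shown above, had another region 1161 bp from a start with 77 reads after knockdown against 10 in the control. The other 2 lay 22022 and 91118 bp from a start and were lower: 4 reads after knockdown against 15 in the control, and 12 against 30. In MLLT3, an acyl-lysine reader of the elongation machinery, 1 region with 2 reads after knockdown against 21 in the control stood among 9 regions that were higher.

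Many genes held several narrow regions. Of 2246 genes with at least 2, 786 (35.0%) had only higher ones, 254 (11.3%) only lower ones and 1206 (53.7%) both. Regions in 1 gene share their surroundings and are not independent. The largest numbers were in long genes. PDE4D, a cyclic AMP phosphodiesterase gene of 1553 kb, had 32 regions, of which 27 were higher. Its reads over all 32 were 1113 after knockdown against 325 in the control, with medians of 27.5 and 8.5 a region. HDAC9, a class IIa histone deacetylase gene, had 31, of which 30 were higher, with 1198 reads after knockdown against 327 in the control. AUTS2, a neurodevelopmental gene whose product joins a Polycomb complex, had 24 higher and 5 lower regions. PCDH9, a protocadherin gene, had 17 higher and 4 lower ones. LRMDA had 16 higher and 8 lower, and LRP1B, a receptor gene often deleted in cancer, 13 and 9. In CTNNA2, an alpha-catenin gene, and PTPRD, a receptor phosphatase gene, 10 regions were higher and 11 lower in each. Per megabase of interior, HDAC9 (34.1) had more than PDE4D (20.7) and PTPRD (9.16), against 9.86 over all genes. Over the chromosomes of these genes, 7, 5 and 9 in that order, the density was 12.6, 10.5 and 13.5.

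Some genes held regions of 1 direction throughout. GLI3, a transcription factor of Hedgehog signalling, had 16 regions, all higher, with between 13 and 115 reads after knockdown and between 3 and 20 in the control. SLIT3, a secreted axon guidance ligand, had 13, all higher, with between 12 and 96 reads after knockdown and between 2 and 15 in the control. SLC25A21, a mitochondrial carrier gene, had 13, all higher, with a median of 34 reads after knockdown against 4 in the control. In SYT1, the calcium sensor of synaptic vesicles, 11 of 11 were higher, with medians of 16 and 2 reads (knockdown, control). The nuclear lamina gene LMNA had 7 of 7 higher within a span of 57.5 kb, with between 16 and 32 reads after knockdown and between 1 and 9 in the control. HOXA3, a homeobox gene, had 5 of 5 higher, with between 29 and 46 reads after knockdown and between 9 and 22 in the control. These genes were chosen because all their regions were higher, and the reads are not scaled to the library totals.

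In other genes nearly all regions were lower. In SYT14, a synaptotagmin relative, 7 of 7 were lower, with between 0 and 3 reads after knockdown and between 9 and 14 in the control. RYR3, a calcium release channel gene, had 10 lower regions and 1 higher, and its lower ones had between 0 and 4 reads after knockdown and between 8 and 16 in the control. DPP10, which encodes a potassium channel partner, had 6 of 6 lower, with between 0 and 2 reads after knockdown and between 8 and 12 in the control. GRM7, a metabotropic glutamate receptor gene, and NTRK3, the neurotrophin-3 receptor gene, each had 5 of 5 lower. SOX5, a developmental transcription factor, had 8 lower and 1 higher. NRG1, a ligand of ErbB receptors, and NRG3, its paralog, had 7 lower and 1 higher each. These were shallow genes: the median region had 15 reads over both libraries in SYT14 and RYR3, against 39 in GLI3 and 42 in SLC25A21. At that depth 44.1% of all narrow gene-body regions were higher.

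**Figure D4:**
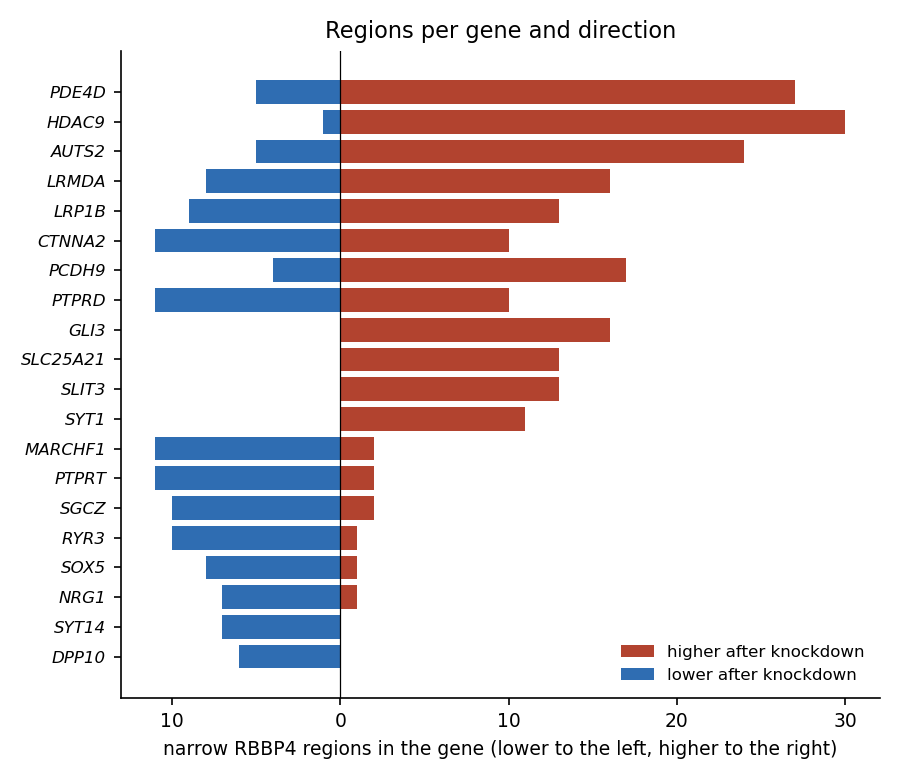
Number of narrow RBBP4 regions per gene (horizontal axis) that were lower (bars to the left) or higher (bars to the right) after CSNK2B knockdown. The 8 genes with the most regions stand at the top, PDE4D with 27 higher and 5 lower, and below them are genes chosen after their values were seen because nearly all regions shared 1 direction.

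Of 642 neighbouring pairs under 2 kb apart, 94.4% had the same direction, and of 563 pairs at 2 to 5 kb, 82.9%. The share was 64.4% at 10 to 30 kb, 54.4% at 100 kb to 1 Mb and 51.4% beyond 1 Mb. Regions of close pairs were also more often higher themselves: 90.0% under 2 kb, 82.9% at 2 to 5 kb and 58.3% beyond 1 Mb, which alone gives more agreement among close pairs. Among pairs in which both regions had at most 20 reads, 83.6% of 140 shared a direction under 2 kb and 64.3% of 143 at 2 to 5 kb. Beyond 5 kb such shallow pairs lay between 51.7% and 58.6%.

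Gene lists gave different mixes of direction, and they are described by counts only. Over all protein-coding genes with sequence more than 3000 bp from an end, 64.3% of regions were higher. A higher region with an adjusted p under 0.05 in the authors' deposited table lay in 14.8% of these genes, and a lower one in 5.84%. For TGF-beta, Wnt and Hippo signalling, 90 of 103 regions were higher (87.4%, 79.4 to 93.1). Of its 40 genes, 21 held a higher region past that adjusted p in the authors' deposited table and 5 a lower one. Listed genes were longer, at a median of 122 kb against 34.8 kb over all, which gives more room for regions. Among the receptors, TGFBR3, a TGF-beta co-receptor, had 8 of 8 regions higher, with between 12 and 49 reads after knockdown and between 2 and 8 in the control. The Wnt5a receptor genes ROR1 and ROR2 had 11 of 12 and 7 of 8 higher. Among the transducers, SMAD3 had 7 of 7 higher and SMAD2 6 of 6. SMAD6, an inhibitory SMAD gene, had 5 of 5 higher, with between 18 and 42 reads after knockdown and between 2 and 7 in the control. TEAD1, the DNA-binding partner of the Hippo effector YAP, had 7 of 7 higher, with between 13 and 60 reads after knockdown and between 1 and 7 in the control. Lower regions lay in 10 genes of the list. Among them were WWTR1, the gene of the effector TAZ, with 4 higher and 3 lower, and STK3, a Hippo kinase gene, with 2 of each. Its paralog STK4 had a single region, with 5 reads after knockdown against 25 in the control.

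Corepressors and histone deacetylases had 87 of 106 regions higher (82.1%, 73.4 to 88.8). HDAC9 alone held 31 of the 106, and without it the count of higher regions was 57 of 75 (76.0%, 64.7 to 85.1). RERE, a corepressor that recruits deacetylases, had 10 of 10 higher, with between 12 and 76 reads after knockdown and between 1 and 10 in the control. HDAC4 had 4 of 6 higher, and HDAC8 had 2 of 2 lower, with 2 reads each after knockdown and 11 and 13 in the control.

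Genes of complexes that contain RBBP4 had 12 of 30 regions higher (40.0%, 22.7 to 59.4). JARID2, a PRC2 accessory factor, accounted for 6 of the higher ones, and its deepest region had 92 reads after knockdown against 11 in the control (5.77-fold higher, 3.08 to 12.0). In BPTF, the large NURF subunit, 1 region had 32 reads after knockdown against 5 in the control. The lower ones were spread over 13 genes. LIN52, a DREAM subunit, had 3 of 3 lower, with between 2 and 7 reads after knockdown and between 11 and 19 in the control. MTF2, another PRC2 accessory factor, had 1 read after knockdown against 12 in the control. ARID4B, a SIN3 subunit, had 4 after knockdown against 18 in the control. These were mostly shallow regions, and among those with at most 20 reads 4 of 20 were higher, beside 48.0% of such regions over all genes. RBBP4 itself held no narrow gene-body region.

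Axon guidance genes had 151 of 198 regions higher (76.3%, 69.7 to 82.0). The ligand genes SLIT2 and SEMA3C each had 8 of 8 higher, SLIT3 is given above, and SLIT1 had 6 of 7. Among receptors, UNC5C had 10 of 10 higher, with between 10 and 28 reads after knockdown and between 1 and 5 in the control. UNC5B had 6 of 6 higher. ROBO2, a Slit receptor gene, had 16 of 19 higher and its relative ROBO1 10 of 16. NEO1, the netrin receptor neogenin, ran the other way with 5 of 6 lower, at between 0 and 10 reads after knockdown and between 2 and 15 in the control.

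Ion channels and neurotransmitter receptors had 98 higher and 107 lower regions (47.8% higher, 40.8 to 54.9). Its regions were shallow, at a median of 15 reads, compared with 18 over all genes. Among its regions with at most 20 reads, 34.2% of 149 were higher. KCNH5, a potassium channel gene, had 3 of 3 lower, with between 1 and 4 reads after knockdown and 13 or 14 in the control. CHRM3, a muscarinic receptor gene, had 7 of 9 lower, and GABBR2, a GABA-B receptor gene, 5 of 6. Others were mostly higher, such as GABRG3, a GABA-A receptor subunit gene, with 5 of 5 at between 11 and 65 reads after knockdown and between 1 and 5 in the control. CACNA2D3, a calcium channel subunit gene, had 9 of 11 higher, and KCND2, a potassium channel gene, 8 of 10.

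**Figure D5:**
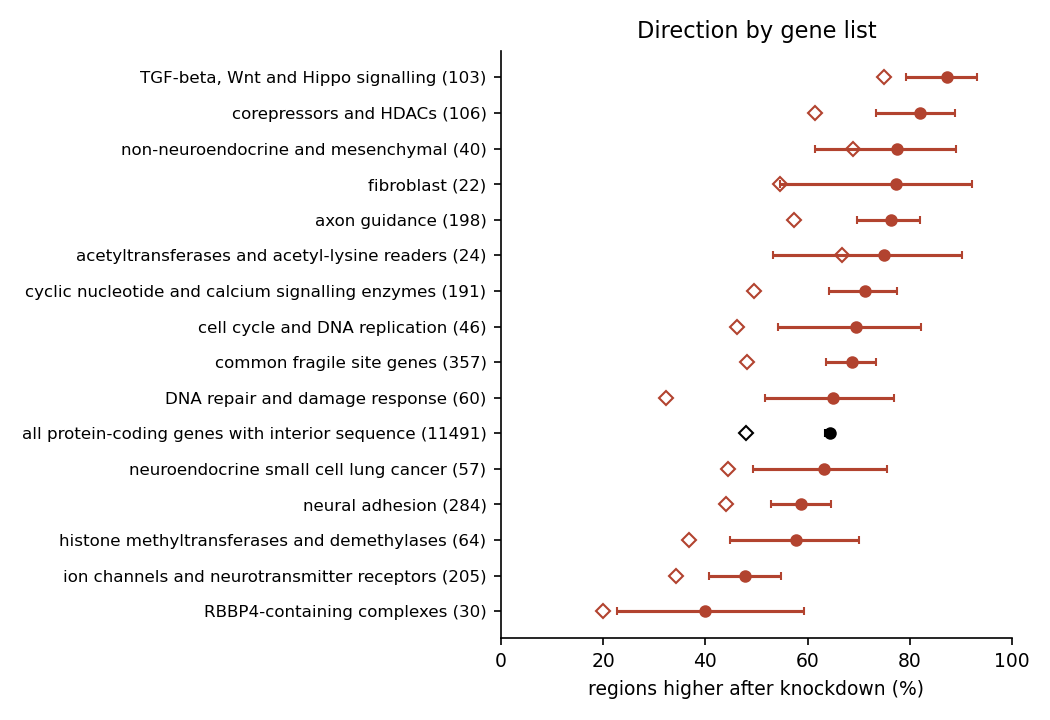
Percent of narrow gene-body RBBP4 regions higher after CSNK2B knockdown (horizontal axis) per gene list, with the number of regions in parentheses; filled points with exact 95% binomial intervals show all regions and open diamonds only regions with at most 20 reads. TGF-beta, Wnt and Hippo signalling has 87.4% higher and RBBP4-containing complexes 40.0%, around 64.3% over all genes (black).

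Histone methyltransferases and demethylases had 37 of 64 regions higher (57.8%). KDM3A, an H3K9 demethylase gene, had the deepest, with 82 reads after knockdown against 4 in the control (14.1-fold higher, 5.32 to 53.1), at 110 bp from an internal start. NSD1, an H3K36 methyltransferase gene, had 3 of 3 lower, with 2 or 3 reads after knockdown and 12 or 13 in the control. Cell cycle and replication genes had 32 of 46 higher (69.6%). CDK14 had 8 of 8 higher, with between 15 and 46 reads after knockdown and between 4 and 9 in the control. The cyclin gene CCND2 had 1 region with 42 reads after knockdown against 5 in the control. Casein kinase 2 genes held 1 region, in the catalytic subunit gene CSNK2A1, with 10 reads after knockdown against 2 in the control (adjusted p = 0.121 per the authors' deposited table).

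Neuroendocrine genes, which define this tumour type, had 36 of 57 regions higher (63.2%, 49.3 to 75.6), near the share over all genes. SYT1 had 11 of 11 higher and UNC13A, a gene of synaptic vesicle priming, 4 of 5. RTN1, a reticulon gene of neuroendocrine cells, had 5 higher and 6 lower, and ELAVL4, a neuronal RNA-binding protein gene, had 2 of 2 lower. Non-neuroendocrine and mesenchymal genes had 31 of 40 higher (77.5%, 61.5 to 89.2). ANXA2, a membrane-binding annexin, had a region with 66 reads after knockdown against 3 in the control (15.2-fold higher, 4.97 to 75.5). NOTCH2, a receptor, had 45 and 1 reads (knockdown, control). ZEB2, a transcription factor of the mesenchymal state, had 1 read after knockdown against 9 in the control, and TGFBI, an extracellular matrix gene, had 1 region higher and 1 lower. Of 20 defining markers of neuroendocrine lung cancer, T cells, hepatocytes, skeletal muscle and fibroblasts, 16 held no narrow gene-body region. The other 4 were NCAM1 (3 regions, 2 higher), CPS1 (3, 1 higher), TTN (4, 1 higher) and FN1 (2, 1 higher). Of all 20056 protein-coding genes, 4594 held such a region, a share near that of the markers. Neural adhesion genes had 167 of 284 higher (58.8%). Common fragile site genes had 245 of 357 higher (68.6%) and cyclic nucleotide and calcium signalling enzymes 136 of 191 (71.2%). Acetyltransferases and acetyl-lysine readers had 18 of 24 higher (75%) and DNA repair genes 39 of 60 (65.0%). Of the smallest lists, fibroblast genes had 17 of 22 higher, T cell genes 4 of 5, skeletal muscle genes 3 of 6 and hepatocyte genes 1 of 6.

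P300, the acetyltransferase encoded by EP300, was mapped in separate libraries under its own batch label. A listed P300 region overlapped 92 of the 11333 narrow RBBP4 regions (0.812%). The same share is not given here for other RBBP4 regions, so this one cannot be called low or high. Of all listed P300 regions, 34.7% were higher and 65.3% lower. Of 55 overlapped RBBP4 regions that were higher, 25 had a higher P300 region and 30 a lower one. Of 37 that were lower, 13 had a higher P300 region and 24 a lower one. At the AGTPBP1 start, RBBP4 had 82 and 6 reads (knockdown, control) while P300 had 4 after knockdown against 13 in the control. In LRP1B, RBBP4 had 49 after knockdown against 5 in the control, and P300 also had more after knockdown, 12 against 1. In PDE4D, RBBP4 had 47 against 11 and P300 20 against 3, knockdown first in both. In the authors' deposited table each of these P300 regions had an adjusted p of 0.26 or more.

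The number of regions per megabase of gene interior was similar in short and long genes: 8.85 under 50 kb, 9.53 at 50 to 200 kb, 10.98 at 200 to 500 kb and 9.65 above 500 kb. Chromosomes differed more, with 13.5 per Mb on chromosome 9, 12.8 on 14 and 12.6 on 7, against 6.05 on 21 and 2.92 on X. Median control reads of their regions were 8, 8 and 9 on the first 3, against 5 on 21 and 3 on X. Densities were not corrected for depth or, with inputs not used, for DNA copy number. On chromosomes 19 and 22, 80.6% and 79.5% of regions were higher, against 58.1% on chromosome 20, with median control reads of 4, 4 and 6.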

How the data were processed

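For each antibody the authors deposited a table with 1 row per region. Per the file headers it gives RPKM in each library, a log2 fold change, a mean log2 CPM, a p-value and an adjusted p-value. The submitters' processing notes name, for the build GRCh38, the aligner Bowtie2 2.4.5, the peak caller MACS2 2.2.7.1 and the package DiffBind 3.4.11 for differential regions. How each was used is not given in the sources used here. Reads were recovered as RPKM times width over the value of 1 read, and came out whole (tolerance 0.01 read) for 99.5% of the narrow gene-body regions. For the other 60, other widths were searched for ones that made both counts whole. Among these, the width whose total reads best matched the region's mean log2 CPM was taken. Their RPKM is thus taken to refer to another width than the one listed. All tested regions were assumed to give the total behind the RPKM. The authors' log2 fold change is scaled otherwise, and log2 ratios of the RPKM lay 0.57 below it (shift -0.57). The 2 measures differed in sign in 0 of 11333 regions. That is no check of the scaling, since regions that hardly differed were not listed. With 1 RPKM added to each side, the smallest log2 ratio of a higher region was 0.49. The lower region nearest to no change had -1.63. A shift of this size could thus not turn a listed region. Direction is the sign that both measures share. Gene spans and transcript starts are from RefSeq GRCh38.p14, which gave no start windows for chromosome 8 (481 regions). Region sequences beyond these windows and exon or intron classes were not used here. Overlap with a P300 region meant 1 bp or more. The members and the 20 gene lists (646 entries) were chosen with earlier results of these data known. Some entries and 1 list are not reported here. Named regions were the 10 per direction with the largest ratio at or above the median depth, the 5 deepest per direction, the 8 genes with the most regions and up to 4 genes per list by p-value. Genes named for start overlap, for a single direction or for their regions within a list, and the P300 pairs, were added after their values were seen. Shares have exact 95% binomial intervals (Clopper-Pearson) that treat regions as independent, which neighbours are not. A test of the knockdown was not possible with 1 library per arm. The recovery of reads and the gene assignment were tested on simulated data. Analyses ran in Python 3.11.15 with pandas 2.3.3 and scipy 1.17.1.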

Additional observations from a re-analysis of the deposited data

How the results depend on the processing

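Depth limits these values, since the median region had 18 reads over both libraries and lower regions were shallow. The share that was higher, 64.4% of 11333, was 80.7% at an adjusted p under 0.05 and 96.8% under 0.01 in the authors' deposited table. It was 88.3% with at least 20 reads, 58.2% under 500 bp wide, 66.7% up to 2000 bp wide and 65.6% at a gene end distance of 1000 bp. Over 1000 bp from a RefSeq start, a setting chosen after seeing the data, it was 62.6%. The median log2 ratio of 1.37 was 1.42 with a pseudocount of 0.5, 1.15 with 5, 2.0 by the authors' log2 fold change, 1.56 with at least 20 reads and 1.35 at a gene end distance of 10000 bp. Regions at least 2-fold higher numbered 6865, against 2940 at 4-fold and 3784 with at least 20 reads, and 556 of 4037 lower ones had at least 20 reads. P300 overlap was 0.221% when at least 50% of the RBBP4 region had to be covered and 2.28% within 1000 bp. Density under 50 kb was 8.36 per Mb at a distance of 10000 bp, and with an adjusted p under 0.05 the densities by rising gene length were 4.53, 4.84, 5.81 and 4.79 per Mb. Near a start, within 1000 bp, 94.7% of 569 were higher. Under settings chosen after seeing the data, that was 98.2% at an adjusted p under 0.05, 99.1% with at least 20 reads and 89.6% with at most 20. Direction is the fixed sign of the authors' log2 fold change, so these settings could not reverse it and changed only which regions were counted. Among the shallowest regions most were lower: 40.0% were higher at 6 to 10 reads and 44.1% at 11 to 15. No paired analysis was possible because each arm had 1 library per antibody, and leaving out a library was not possible either.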

Other observations

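Narrow gene-body regions that overlapped a RefSeq microRNA gene numbered 12, and all 12 were higher after knockdown. They were chosen after their values were seen. At MIR4741 in RBBP8, which encodes a DNA end resection factor, there were 32 reads after knockdown and 4 in the control (5.52-fold higher, 1.96 to 21.5), and that region also held a transcript start. At MIR4492 in BCL9L, a Wnt cofactor gene, there were 34 reads after knockdown and 5 in the control (4.69-fold higher, 1.82 to 15.4). At MIR1469 in NR2F2, a nuclear receptor gene, the counts were 15 after knockdown and 1 in the control, 57 bp from a start. The other 9 had between 13 and 26 reads after knockdown and between 2 and 11 in the control. The MIR4519 region in BCL7C also held a start, and that of MIR4505 in MIDEAS lay 967 bp from one. Of the 12, 8 had in the authors' deposited table an adjusted p under 0.05, beside 51.3% of all narrow gene-body regions, of which 64.4% were higher.

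Regions that overlapped a pseudogene numbered 54, and 22 were higher after knockdown (40.7%, 27.6 to 55.0). Reads from near-identical copies may be placed at any of them, so these counts are uncertain. Regions that overlapped a long non-coding RNA gene numbered 896, and 65.7% were higher, beside 64.4% over all narrow gene-body regions.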
